A study of Mus musculus with 3 samples.

Results

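R-spondin genes, the Lgr receptors they bind and the E3 ligases Znrf3 and Rnf43 were followed in fetal ovarian somatic cells (FOSCs) of the mouse by single-cell RNA sequencing. The 7 genes, Rspo1, Rspo3, Lgr4, Lgr5, Lgr6, Znrf3 and Rnf43, were chosen by name among the 18738 genes listed in the count tables, and all 7 were counted in every lot. Each of the 3 lots, numbered 26, 29 and 30, pooled the E12.5 ovaries from embryos of 10 pregnant CD1 mice. The mesonephros was removed by hand, the cells were dissociated with trypsin and passed over magnetic columns with SSEA1 and CD31 antibodies, which hold back germ and endothelial cells, and the flow-through was frozen and profiled on thaw with 10X 3′ chemistry. No lot carried an engineered allele or a treatment, so only cell classes within the same lots could be compared. The main fit had no lot term. Its p-values set class differences against the spread of class sums among these 3 pools, with the pairing within a lot left out.

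R-spondins are secreted proteins that raise Wnt/β-catenin signaling in cells that are already receiving a Wnt ligand. They bind the receptors Lgr4, Lgr5 or Lgr6 together with Znrf3 or Rnf43, membrane ubiquitin ligases that otherwise clear Frizzled receptors from the cell surface, and so leave more Frizzled in place. Rspo1 acts with Wnt4 in the female pathway of gonad differentiation in the mouse, and Lgr5 is best known as a marker of epithelial stem cells in the intestine.

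Kept were 28971 of 29103 barcodes, those with 200 to 9000 genes and at most 10% mitochondrial UMIs, at 9711, 8553 and 10707 per lot with a median of 11126, 8949 and 11595 UMIs per cell. Between 20 and 30 barcodes occurred in the tables of each pair of lots. Clustering without the 7 genes, the Wnt list and the co-detection markers gave 20 clusters, named from marker lists with the ending "-like". The 3 large somatic classes were pre-granulosa-like cells (11998, clusters 0, 1 and 2), epithelial-like cells (5997, clusters 5, 6, 8 and 9) and stromal-like cells (6458, clusters 3, 4, 10 and 13). Despite the depletion, 1473 germ-like and 349 endothelial-like cells remained, and 391 cells were Sertoli-like, 75.1% to 93.8% of them with a Y-linked UMI. The share of cells with a Y-linked UMI ranged from 0.450% to 9.05% in the epithelial-like class and in the stromal-like class from 1.36% to 14.01%, highest in lot 29 in both. Cluster 2 drew 2913 of its 3133 cells from lot 30, and cluster 9, named epithelial-like, also scored on the stromal list and was led by Krt19, Tm4sf5, Pappa2, Hoxd11 and Hand2. Some results that rest on either are therefore also given without it. Levels are CPM, UMIs of a gene per 1000000 UMIs of a class in a lot, given as mean ± SD over the 3 lots, and they are compared within a gene only.

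The ligand Rspo1 gave the most UMIs of the 7 genes, 53148, followed by Lgr4 with 24621, Lgr5 with 18013, Rspo3 with 6130, Znrf3 with 3489, Rnf43 with 2578 and Lgr6 with 359. Rspo1 was highest in pre-granulosa-like cells, at 278, 278 and 252 CPM in lots 26, 29 and 30. Supporting-like cells, a class of 802 cells led by Lypd1 and Pax8, gave 155, 162 and 139 CPM. Epithelial-like cells held 136, 121 and 130 CPM and stromal-like cells 58.4, 47.5 and 58.8 CPM. These 4 classes followed each other with no overlap between lots, whereas the classes below them, from macrophage-like (48.4 ± 23.9 CPM) to germ-like cells (25.4 ± 7.17 CPM), overlapped with their neighbors. With each cell thinned to 4000 UMIs, an Rspo1 UMI was found in 14.6% ± 1.12 of stromal-like cells and in 13.3% ± 8.40 of macrophage-like cells. The latter, a class of 133 cells, is not expected to express the gene, so the stromal-like level was not separated from this background. The thinned shares were 8.34% ± 1.62 in germ-like and 10.1% ± 3.78 in endothelial-like cells. Removing called doublets, 347 to 635 barcodes per lot, lowered Rspo1 to 36.8 CPM in stromal-like, 34.0 CPM in macrophage-like, 14.6 CPM in endothelial-like (from 33.4 CPM) and 14.4 CPM in germ-like cells. Pre-granulosa-like cells made up 41.4% of the cells and held 64.4% of all Rspo1 UMIs.

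Rspo3, the second R-spondin of the set, had a different arrangement. Stromal-like cells held 38.7, 43.7 and 32.3 CPM and epithelial-like cells 41.4, 30.7 and 23.0 CPM, and the lots of these 2 classes overlapped. Pre-granulosa-like cells held 1.09, 1.55 and 1.38 CPM, the lowest mean (1.34 ± 0.231 CPM) among classes with any Rspo3 UMI. The epithelial-like class held 45.1% and the stromal-like class 42.8% of Rspo3 UMIs, against 2.76% in the pre-granulosa-like class. No Rspo3 UMI was found in 78 red-blood-cell-like cells, which allows a level of up to 3.50 CPM, a limit that covers counting error only.

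Of the receptors, Lgr4 was the broadest. Supporting-like cells held 141, 116 and 124 CPM, above every other named class in every lot. Stromal-like (83.5 ± 9.43 CPM), pre-granulosa-like (71.1 ± 3.74 CPM) and epithelial-like cells (64.3 ± 4.51 CPM) came next, each overlapping with its neighbor in this order. Within each lot these 3 classes kept the same order. Sertoli-like cells were lower at 47.6 ± 10.2 CPM, and endothelial-like, germ-like and macrophage-like cells lay between 26.6 and 28.8 CPM in the mean. Without called doublets the endothelial-like level of Lgr4 was 18.1 ± 2.42 CPM.

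Lgr5 was high in fewer classes. Pre-granulosa-like cells held 104, 65.7 and 81.7 CPM, Sertoli-like cells 71.5, 58.6 and 59.1 CPM, and epithelial-like cells 63.3, 30.3 and 55.2 CPM. The ranges of neighboring classes over the lots overlapped among these 3, although within each lot the 3 classes kept this order. All 3 lay above the remaining classes without overlap. Stromal-like cells held 17.7, 6.70 and 13.8 CPM, next to 13.7 ± 5.66 CPM in macrophage-like cells, which are not expected to express this gene either. With each cell thinned to 4000 UMIs, 24.2% ± 4.67 of pre-granulosa-like and 13.9% ± 4.75 of epithelial-like cells had an Lgr5 UMI (43.6% and 33.4% unthinned). The thinned share was 3.11% ± 1.21 in stromal-like and 2.98% ± 2.73 in germ-like cells against 3.27% ± 3.89 in macrophage-like cells (7.58%, 0% and 2.22% in the lots). The first 2 means lay below the macrophage-like mean, so neither class as a whole was read as expressing Lgr5, and free RNA was not tested. Median depth was 7822 to 10126.5 UMIs in stromal-like, 18134 to 23767 in germ-like and 10692 to 11509.5 in macrophage-like cells. Removing called doublets lowered Lgr5 from 12.7 to 5.36 CPM in stromal-like, from 10.8 to 4.18 CPM in endothelial-like and from 13.7 to 4.91 CPM in macrophage-like cells.

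Lgr6, the third receptor of the family, was rare, and 189 of its 359 UMIs were in epithelial-like cells. Their level was 2.10, 1.79 and 2.21 CPM, against 0.924 ± 0.0893 CPM in stromal-like and 0.457 ± 0.0196 CPM in pre-granulosa-like cells, with no overlap among the 3 classes. Macrophage-like cells gave 1.64 ± 1.45 CPM from 4 UMIs (2.17, 0 and 2.76 CPM), overlapping with all 3 classes. With all kept cells, the Lgr6 levels were thus not separated from this background. Without called doublets, no Lgr6 UMI was left in macrophage-like cells, and epithelial-like cells held 2.38, 1.96 and 2.33 CPM. The macrophage-like class then had 56, 19 and 38 cells in the lots, so the absence of UMIs bounds its level only loosely. No Lgr6 UMI occurred in 391 Sertoli-like cells, which allows up to 0.567 CPM. Lgr6 did not pass the low-count filter of the fits across all genes.

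The E3 ligases gave few UMIs as well. Znrf3 was highest in supporting-like cells (19.2 ± 2.11 CPM) and next in germ-like cells, at 15.5, 13.6 and 14.3 CPM, and its levels in the 3 large somatic classes overlapped, between 7.89 and 9.48 CPM in the mean. Rnf43 was 14.9 ± 4.21 CPM in supporting-like, 10.6 ± 2.48 CPM in pre-granulosa-like and 7.61 ± 1.58 CPM in epithelial-like cells. Stromal-like cells held 3.67, 1.19 and 1.93 CPM of Rnf43 and germ-like cells 1.99, 0.731 and 0.806 CPM, below all 3 of those classes in every lot. Macrophage-like cells gave 5.28 ± 4.59 CPM of Rnf43 from 13 UMIs (7.58, 0 and 8.27 CPM), overlapping with the epithelial-like and stromal-like lots. Thus the 2 ligases were arranged differently, with Znrf3 but not Rnf43 high in the germ-like class.

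**Figure D1:**
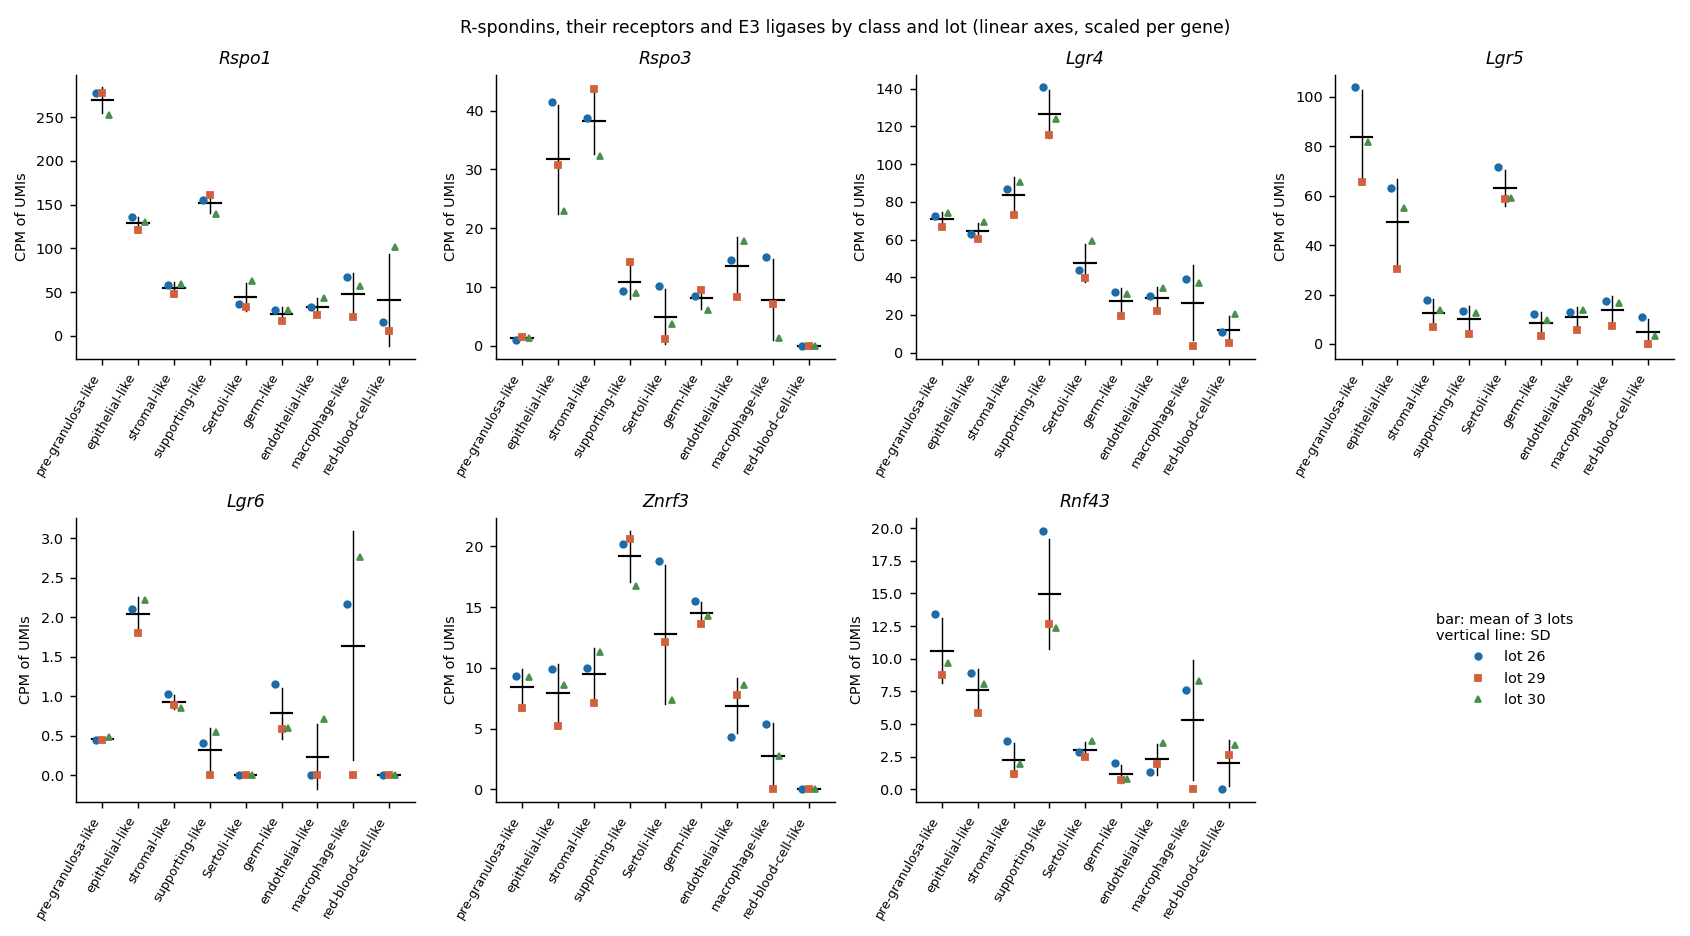
Level of each gene in CPM of UMIs (y axes, linear and scaled per gene) in 9 named classes, with 1 point per lot, a bar at the mean and a vertical line for the SD over 3 lots. Rspo1 peaked in pre-granulosa-like cells at 252 to 278 CPM, Rspo3 in stromal-like and epithelial-like cells at 23.0 to 43.7 CPM, Lgr4 in supporting-like cells, and Lgr5 in pre-granulosa-like, Sertoli-like and epithelial-like cells.

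All 7 genes are protein coding. In GENCODE M21 on GRCm38, Rspo1 lies at chr4:124986430-125009099 on the plus strand, Rspo3 at chr10:29452416-29535867 on the minus strand, Lgr4 at chr2:109917647-110014257 on the plus strand and Lgr5 at chr10:115450311-115587780 on the minus strand. Lgr6 lies at chr1:134983301-135105276 on the minus strand, Znrf3 at chr11:5276324-5444847 on the minus strand and Rnf43 at chr11:87662722-87735539 on the plus strand. An antisense gene, Gm48159, shares 404 exonic bases with Rspo3 and was not listed in the count tables. Rspo3 has 3090 exonic bases. The strand setting of the counting is not given in the sources used here, so reads of the 2 genes cannot be told apart within the shared bases. How many Rspo3 reads fall there was not examined. Upstream windows of 250 bases were at hand from RefSeq for 4 of the 7 genes (GRCm38.p6), and those of Rspo1, the gene most concentrated in pre-granulosa-like cells, and Lgr4, the broadest receptor, are shown 5′ to 3′ to set the promoter letters of a restricted and a broad member side by side.
Rspo1, chr4:124986180-124986429, plus strand: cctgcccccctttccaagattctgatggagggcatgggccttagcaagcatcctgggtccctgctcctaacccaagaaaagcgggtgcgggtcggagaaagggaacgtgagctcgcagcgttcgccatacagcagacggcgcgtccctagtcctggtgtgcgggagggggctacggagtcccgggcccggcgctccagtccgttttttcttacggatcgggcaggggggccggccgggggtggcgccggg
Lgr4, chr2:109917397-109917646, plus strand: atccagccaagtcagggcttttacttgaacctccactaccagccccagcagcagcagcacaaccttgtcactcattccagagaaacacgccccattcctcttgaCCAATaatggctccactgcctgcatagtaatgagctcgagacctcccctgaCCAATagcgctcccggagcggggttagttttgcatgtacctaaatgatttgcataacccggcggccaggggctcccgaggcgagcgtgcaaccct
Capitals mark the motif CCAAT, which occurred in the Lgr4 window at 146 and 95 bases before the start and in 33.9% of 32851 RefSeq windows of the same length on either strand. The TCF/LEF motif CTTTGA (in 13.8% of windows), the GATA motif GATAAG (in 6.55%) and the TATA motif TATAAA (in 12.4%) were not matched on either strand in the windows of Rspo1, Lgr4, Lgr6 or Rnf43. The CCAAT and TATA letters were searched after the sequences had been seen.

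Classes were compared with edgeR's quasi-likelihood test on UMI sums of 9 classes in 3 lots, with p-values adjusted by Benjamini-Hochberg over 13450 genes, and 6 of the 7 genes were tested. The first question was how the epithelial-like cells differ from the pre-granulosa-like cells. Rspo3 was higher in epithelial-like cells by 4.54 ± 0.30 (log2 fold change ± SE, edgeR adjusted p = 3.56e-11), while Rspo1 was lower (-1.09 ± 0.19, edgeR adjusted p = 3.64e-05), as was Lgr5 (-0.78 ± 0.28, edgeR adjusted p = 0.030). So 3 of 6 genes were called, 1 higher and 2 lower, against 45.7% of all genes (22.3% higher and 23.4% lower). The Rspo3 call was kept without cluster 9, where the epithelial-like level was 19.2 ± 6.62 CPM. The Lgr5 call was not held without lot 26 (edgeR adjusted p = 0.108), without lot 30 (edgeR adjusted p = 0.156), without cluster 9 (-0.60, edgeR adjusted p = 0.092), without cluster 2 (edgeR adjusted p = 0.050) or in DESeq2 (adjusted p = 0.090). With the lot as a block the Lgr5 call was kept. Lgr4 (-0.17 ± 0.15), Znrf3 (-0.12 ± 0.19) and Rnf43 (-0.50 ± 0.23, edgeR adjusted p = 0.080) were not called, and with the lot as a block Rnf43 was (-0.48, edgeR adjusted p = 0.000434).

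Stromal-like cells were set against pre-granulosa-like cells next. Rspo3 was higher by 4.74 ± 0.30 (edgeR adjusted p = 1.14e-11), and Rspo1 (-2.40 ± 0.20), Lgr5 (-2.80 ± 0.31, edgeR adjusted p = 1.89e-07) and Rnf43 (-2.29 ± 0.26) were lower. The called genes were 4 of 6, 1 higher and 3 lower, beside 48.7% of all genes (24.1% higher and 24.6% lower). Lgr4 (0.13 ± 0.15) and Znrf3 (0.07 ± 0.19) were not called. Without called doublets the Lgr5 difference was -4.09 and the Rspo1 difference -3.02.

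Epithelial-like cells exceeded stromal-like cells in Rspo1 by 1.31 ± 0.20, in Lgr5 by 2.02 ± 0.31 and in Rnf43 by 1.79 ± 0.27, with edgeR adjusted p-values of 5.18e-06, 2.51e-05 and 2.64e-06. These were 3 of 6 genes, all higher, where 31.0% of all genes were called (14.6% higher and 16.4% lower). Rspo3 did not pass the test (-0.20 ± 0.24, edgeR adjusted p = 0.58), but without cluster 9 it was lower in epithelial-like cells (-0.91, edgeR adjusted p = 0.00821). Lgr4 was not called (-0.30 ± 0.15, edgeR adjusted p = 0.13), but it was lower in epithelial-like cells with the lot as a block (-0.30, edgeR adjusted p = 0.00319) and without called doublets (-0.37, edgeR adjusted p = 0.0244). Over all 3 pairs of large classes, the lots did not overlap for 14 of 21 values, namely 4 of 7 genes between pre-granulosa-like and epithelial-like cells (59.7% of all genes), 5 between pre-granulosa-like and stromal-like cells (63.8%) and 5 between epithelial-like and stromal-like cells (50.3%). Non-overlap was thus common among all genes too.

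In germ-like cells, all 6 genes tested differed from the mean of the 3 large somatic classes, beside 77.2% of all genes (36.8% higher and 40.4% lower). Znrf3 was higher (0.72 ± 0.16, edgeR adjusted p = 0.000166). Rspo1 (-2.31 ± 0.19), Lgr5 (-2.08 ± 0.30), Rnf43 (-2.12 ± 0.30) and Lgr4 (-1.42 ± 0.14) were lower. Rspo3 was lower by a small margin (-0.58 ± 0.25, edgeR adjusted p = 0.042), a call not held without lot 29 (edgeR adjusted p = 0.0581), without lot 30 (edgeR adjusted p = 0.175) or without cluster 9 (-0.34, edgeR adjusted p = 0.24). Scaling by relative log expression moved the median of all genes in this comparison from -0.07 to 0.04, and no member changed direction.

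Endothelial-like cells were lower than the 3 large somatic classes in Rspo1 (-1.89 ± 0.21), Lgr4 (-1.32 ± 0.17), Lgr5 (-1.74 ± 0.42, edgeR adjusted p = 0.00209) and Rnf43 (-1.47 ± 0.49, edgeR adjusted p = 0.015). These were 4 of 6 genes, none higher, where 42.6% of all genes were called (20.2% higher and 22.4% lower). The Rnf43 call rested on lot 26, without which the difference was -0.77 (edgeR adjusted p = 0.27). Without called doublets the differences were -2.77 for Rspo1, -2.01 for Lgr4 and -2.49 for Lgr5. Rspo3 (0.24 ± 0.33) and Znrf3 (-0.43 ± 0.29) were not called, and without lot 29 Znrf3 was (-0.76, edgeR adjusted p = 0.035).

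Sertoli-like cells, the XY counterpart of pre-granulosa cells, were compared with pre-granulosa-like cells. Rspo1 was lower in Sertoli-like cells (-2.90 ± 0.25, edgeR adjusted p = 2.16e-10), from 252 to 278 CPM in pre-granulosa-like lots to 33.3 to 62.8 CPM in Sertoli-like lots. Rnf43 (-2.02 ± 0.48, edgeR adjusted p = 0.00102) and Lgr4 (-0.77 ± 0.19, edgeR adjusted p = 0.00132) were lower too. The 3 calls of 6, all lower, stand beside 37.5% of all genes (17.9% higher and 19.6% lower). Lgr5 was not called (-0.46 ± 0.35, edgeR adjusted p = 0.33, and -0.55 with edgeR adjusted p = 0.029 without lot 29), and neither were Znrf3 (0.67 ± 0.28, edgeR adjusted p = 0.059, or 0.78 with edgeR adjusted p = 0.00729 with the lot as a block) and Rspo3. The Rspo3 difference was 1.46 ± 0.70, but 2.72 without lot 29 and -0.18 without lot 26. The Sertoli-like class held 90, 285 and 16 cells in lots 26, 29 and 30.

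**Figure D2:**
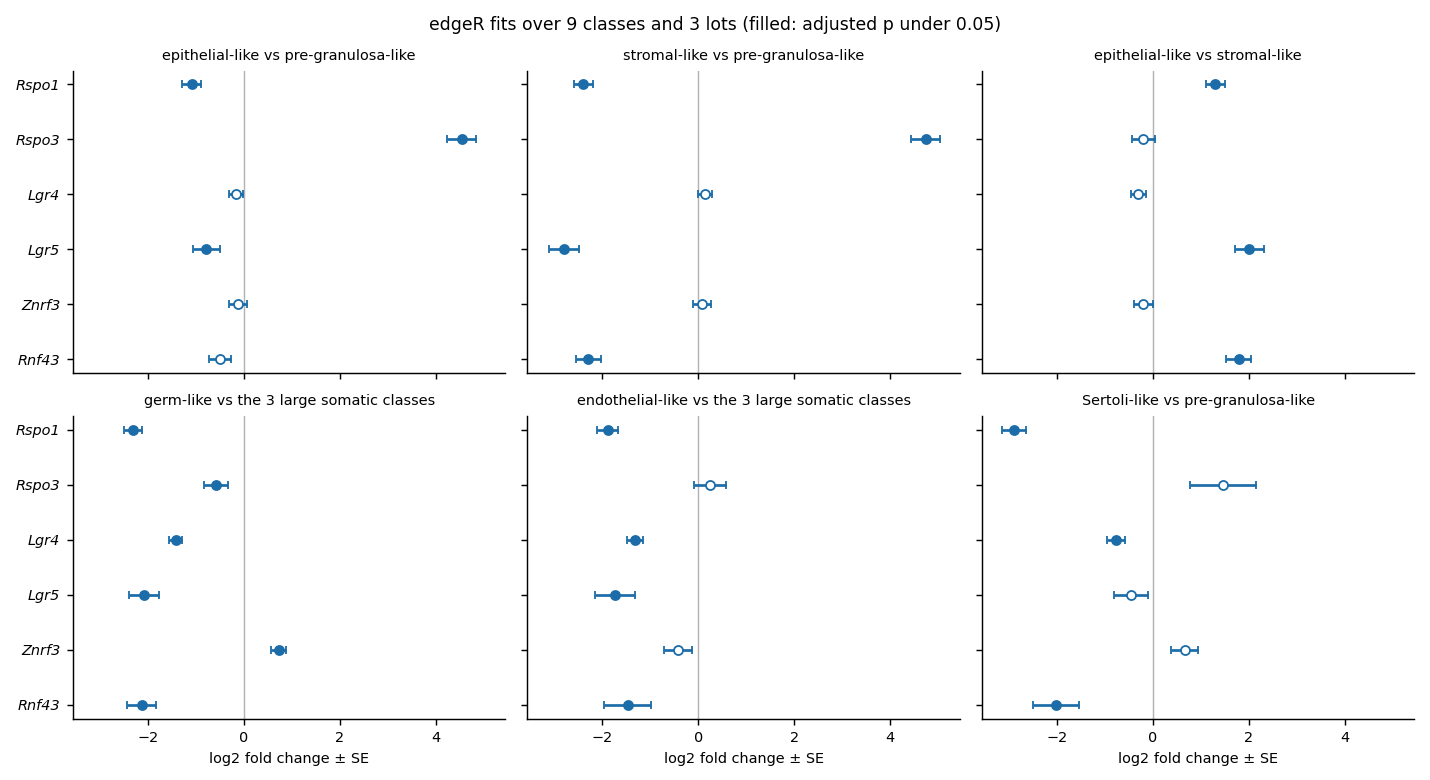
Log2 fold change ± SE (x axes) of the 6 tested genes in 6 comparisons between classes from 1 edgeR fit over 9 classes and 3 lots, with filled points where the adjusted p was under 0.05. Rspo3 lay at 4.54 and 4.74 in the comparisons with pre-granulosa-like cells, and Znrf3 at 0.72 was the only one of the 6 higher in germ-like cells.

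Within the classes, the ligands and receptors were not evenly spread over the clusters. Rspo3 was concentrated in cluster 9 among epithelial-like cells (129, 90.5 and 93.5 CPM) and in clusters 10 (134, 141 and 105 CPM) and 13 (97.4, 128 and 107 CPM) among stromal-like cells. Cluster 10 was led by Lum, Ntrk2 and Dcn, and cluster 13 by Dkk2, Foxd1 and Nefm. The other clusters of both classes held between 7.30 and 28.7 CPM in the mean. Without cluster 9 the epithelial-like level of Rspo3 was 19.2 ± 6.62 CPM, against 31.7 ± 9.25 CPM with it, and without cluster 13 the stromal-like level was 28.7 ± 5.59 CPM.

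Lgr5 showed the reverse among the epithelial-like clusters. Cluster 5, led by Tm4sf5, Upk3b, Krt7 and Krt14, held 105, 47.4 and 78.8 CPM, in the range of the pre-granulosa-like clusters (67.2 to 90.5 CPM in the mean). Clusters 6 and 8, led by cell-cycle genes, held 46.7 ± 13.6 and 43.9 ± 13.8 CPM, and cluster 9 held 16.1, 9.77 and 13.6 CPM, below the other epithelial-like clusters in every lot. Among the stromal-like clusters, cluster 13 held 34.0 ± 16.3 CPM, higher in each lot than the other stromal-like clusters. Lgr4 varied mainly among stromal-like cells, from 35.5 ± 7.99 CPM in cluster 10 and 45.2 ± 13.1 CPM in cluster 13 to 114 ± 11.1 CPM in cluster 3, which was led by Sparcl1, Ngfr and Myh8.

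Rspo1 differed among the pre-granulosa-like clusters. Cluster 1, with Sprr2d and Fst among its leading genes, held 324, 353 and 297 CPM, above cluster 0 at 242 ± 13.1 CPM and cluster 2 at 228 ± 23.3 CPM in every lot. The same cluster had the lower Lgr5 level of the 3, at 81.0, 53.5 and 67.2 CPM, against 117, 71.8 and 82.7 CPM in cluster 0. Without cluster 2, the pre-granulosa-like levels were 278 ± 4.72 CPM for Rspo1 and 80.6 ± 20.4 CPM for Lgr5. Differences among clusters are given as a description, with no test.

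**Figure D3:**
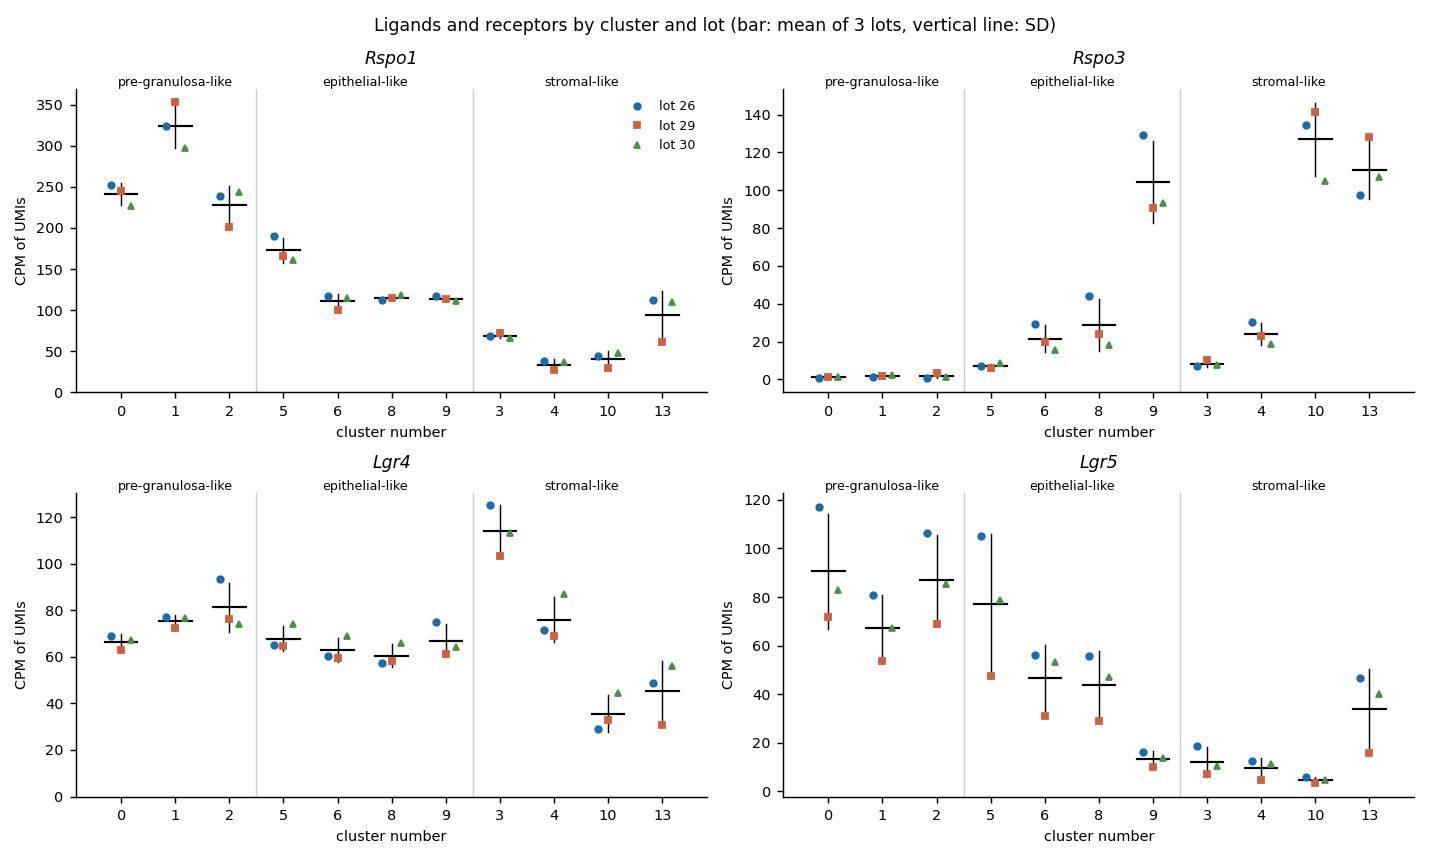
CPM of Rspo1, Rspo3, Lgr4 and Lgr5 (y axes, linear) in the clusters of the 3 large somatic classes, with 1 point per lot, a bar at the mean and a vertical line for the SD over 3 lots. Rspo3 stood at 90.5 to 141 CPM in clusters 9, 10 and 13, and Lgr5 in cluster 9 at 9.77 to 16.1 CPM.

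The lots also differed. Lot 29 held the lowest Lgr5 level in 9 of 9 named classes and the lowest Lgr4 level in 9 of 9, whereas Rspo1 was lowest there in 7 of 9, Rnf43 in 6 of 9 and Rspo3 in 2 of 8. Over all kept cells, Lgr5 was 59.1, 34.8 and 53.2 CPM and Rspo1 151, 142 and 154 CPM. Lot 29 also had the lowest median UMIs per cell and the highest share of cells with a Y-linked UMI in the epithelial-like and stromal-like classes, and their part in the lower Lgr5 was not tested.

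It was then asked which cells carried Lgr5, using Upk3b and Krt19 as epithelial and Foxl2, Wnt4, Wnt6 and Fst as pre-granulosa markers. An Lgr5 UMI was found in 3242, 1853 and 3486 cells, of which 63.0%, 63.7% and 59.8% were pre-granulosa-like and 19.7%, 21.7% and 27.7% epithelial-like. Lgr5-positive cells with a UMI of Upk3b or Krt19 as well as of Foxl2 or Fst made up 18.1%, 14.1% and 21.5% per lot, compared with 8.04%, 6.18% and 10.0% of cells without Lgr5. Cells with more UMIs have more of every gene, and with each cell thinned to 4000 UMIs these shares were 5.71%, 6.34% and 7.30% against 3.33%, 3.15% and 4.05%. Cells with Foxl2 or Fst and no epithelial marker were 54.3%, 51.8% and 53.0% of the thinned Lgr5-positive cells. In thinned cells without Lgr5 they were 34.5%, 31.3% and 36.7%. Cells with Upk3b or Krt19 and neither Foxl2 nor Fst were 12.8%, 10.5% and 11.3% with Lgr5, against 13.1%, 16.4% and 15.6% without. The pre-granulosa side of these groups was set by Foxl2 or Fst only, without Wnt4 and Wnt6. So defined, cells with both kinds of marker were the smallest group among thinned Lgr5-positive cells in all lots. Groups that also count Wnt6, which was frequent in epithelial-like cells with Lgr5, were not formed. Unthinned, they were 18.6% of Lgr5-positive cells over all lots, above the 14.4% with an epithelial marker only, and this order held in every lot. Cells with neither kind of marker were 13.6% unthinned over all lots, but 19.6% in lot 29, above those with both. The order of the groups thus depended on the thinning.

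In epithelial-like cells, an Lgr5 UMI went with more frequent Wnt6, a Wnt ligand gene. Thinned, Wnt6 was found in 69.8%, 58.0% and 68.6% of cells with Lgr5 and in 41.0%, 35.3% and 43.8% of cells without, and the lots of the 2 groups did not overlap. Unthinned, the means were 92.9% and 54.0%, and the thinned share over all macrophage-like cells was 12.1%. Fst, which encodes the activin antagonist follistatin, was found in 19.0%, 19.3% and 24.7% of cells with Lgr5 against 14.2%, 10.8% and 14.8%. Upk3b showed no steady difference (51.4% against 52.5%, higher with Lgr5 in 1 of 3 lots), and Krt19 was less frequent with Lgr5 in 3 of 3 lots (28.1% against 32.0%). Foxl2, a defining factor of granulosa cells, was found in none of 815 thinned epithelial-like cells with Lgr5, which allows up to 0.368% of cells with a UMI (unthinned, 0.77% with and 0.36% without Lgr5). This limits cells with a Foxl2 UMI and not cells that express the gene, since thinned pre-granulosa-like cells had one in only 1.75% of cells with and 2.33% of cells without Lgr5.

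Without called doublets the thinned shares in epithelial-like cells were 64.6% against 37.9% for Wnt6 and 17.5% against 9.93% for Fst, each higher with Lgr5 in 3 of 3 lots. Krt19 moved with cluster 9. Without cluster 9, Krt19 was found in 27.0% of cells with and 26.4% of cells without Lgr5, higher in 2 of 3 lots, while the Wnt6 shares were 67.0% and 47.4%. Wnt6 was more frequent with Lgr5 in 3 of 3 lots within each of the epithelial-like clusters 5 (72.6% against 61.8%), 6 (60.4% against 37.1%), 8 (61.8% against 44.3%) and 9 (35.3% against 14.5%).

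In pre-granulosa-like cells the markers hardly separated cells with and without Lgr5. Wnt6 was found in 91.2% ± 0.71 of cells with and 90.0% ± 0.996 of cells without Lgr5, higher in 2 of 3 lots, and Upk3b in 2.49% ± 0.0771 and 2.40% ± 0.378, higher in 1 of 3. Wnt4 (78.4% against 81.0%) and Fst (74.2% against 76.5%) were slightly less frequent with Lgr5 in 3 of 3 lots. Of 18 pairs of a marker and a large class, 13 had a higher share with Lgr5 in every lot in unthinned counts and 7 after thinning.

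Ligand and receptor were also looked for in the same cell. In thinned pre-granulosa-like cells Rspo1 was found in 62.4%, 64.2% and 59.6% of cells with Lgr5 and in 64.3%, 62.9% and 59.2% of cells without. Lgr4 was less frequent with Lgr5 in 3 of 3 lots (21.5% against 25.03%). In epithelial-like cells Rspo1 was found in 43.8% of cells with and 36.5% of cells without Lgr5, higher in 3 of 3 lots, but within cluster 5 the shares were 47.7% and 46.6%, higher in 1 of 3. Rspo3 was found in 3.39%, 1.70% and 2.62% of epithelial-like cells with Lgr5 and in 12.4%, 8.99% and 8.16% of those without. Unthinned, the Rspo3 means were 6.70% and 20.6%. Without cluster 9 the thinned Rspo3 shares were 2.25% and 5.83%, again lower with Lgr5 in 3 of 3 lots.

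**Figure D4:**
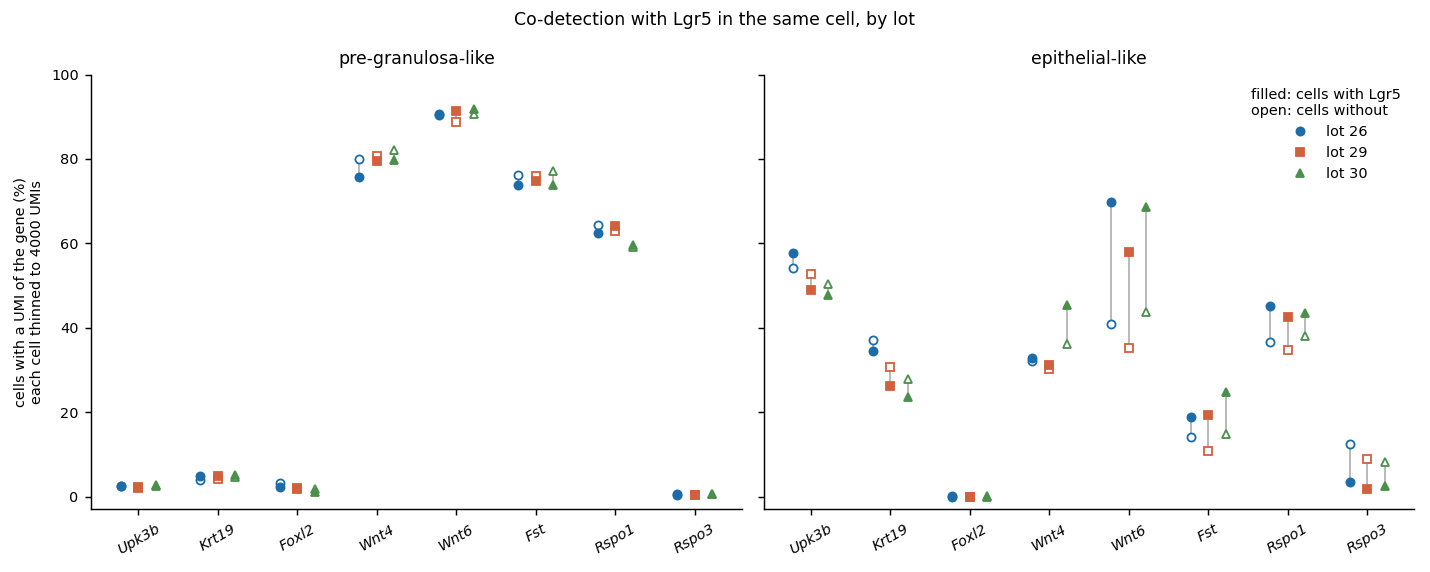
Share of cells (y axis, percent) with a UMI of each marker or ligand among cells with (filled) and without (open) an Lgr5 UMI, in pre-granulosa-like and epithelial-like cells of each lot, each cell thinned to 4000 UMIs. In epithelial-like cells Wnt6 was more frequent with Lgr5 in 3 of 3 lots and Rspo3 less frequent in 3 of 3 lots.

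The wider Wnt pathway was read from a list of 36 further genes, of which 35 were tested. Between epithelial-like and pre-granulosa-like cells 10 were higher and 2 lower, beside 22.3% higher and 23.4% lower among all genes, with a median log2 fold change of 0.16 against -0.01 over all genes. The leading genes were Fzd4, a Frizzled receptor (2.51 ± 0.22), and Notum, a secreted Wnt deacylase and feedback inhibitor (2.30 ± 0.35), both higher in epithelial-like cells. Axin2 (0.16 ± 0.13), the commonly used readout of β-catenin activity, and Lef1 (0.17 ± 0.12), a nuclear partner of β-catenin, were not called.

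Between stromal-like and pre-granulosa-like cells 11 of the 35 were higher and 8 lower, beside 24.1% and 24.6% of all genes (median 0.24 against -0.0021 over all genes). The non-canonical receptor Ror2 (3.77 ± 0.21) and Fzd10 (3.37 ± 0.58) led. Axin2 was lower in stromal-like cells, at 34.6, 27.3 and 30.6 CPM against 59.5, 52.2 and 53.6 CPM (-0.94 ± 0.13), and so was Lef1 (-0.92 ± 0.12). Epithelial-like cells exceeded stromal-like cells in 9 of the 35 genes and were lower in 7, beside 14.6% and 16.4% of all genes (median -0.06 against 0.01), with Ror2 (-2.45 ± 0.19) and Sp5, a direct β-catenin target (2.18 ± 0.22), leading and Axin2 (1.10 ± 0.13) and Lef1 (1.09 ± 0.12) higher.

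In germ-like cells 13 of the 35 genes were higher and 14 lower than in the large somatic classes, beside 36.8% and 40.4% of all genes (median -0.20 against -0.07). The R-spondin Rspo4 led (4.96 ± 0.34), at 3.04, 2.63 and 3.53 CPM against 0.16 CPM or less in the lots of the 3 large classes, followed by Fzd10 (3.93 ± 0.34). Rspo4 passed the low-count filter through levels outside the large classes, so its fold change and rank are a description and not a test. It is 1 of the 13 genes counted as higher, so that count includes a gene without a valid test. Axin2 was higher in germ-like cells (0.38 ± 0.11) and Lef1 was not called (-0.10 ± 0.10). Rspo2, the remaining R-spondin, did not pass the low-count filter and reached 0.98, 0.86 and 1.09 CPM in pre-granulosa-like cells.

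Endothelial-like cells were lower in 17 and higher in 7 of the 35, beside 22.4% lower and 20.2% higher among all genes (median -0.54 against -0.07). Axin2 (-1.95 ± 0.18) and Lef1 (-0.46 ± 0.13) were lower. Notum was at 0 UMIs in every endothelial-like lot, and Fzd10 was higher (5.00 ± 0.43). In Sertoli-like cells, against pre-granulosa-like cells, 7 genes were higher and 9 lower, beside 17.9% and 19.6% of all genes (median 0.05 against -0.06). Axin2 was at 17.3, 8.26 and 22.2 CPM in Sertoli-like cells (-2.24 ± 0.21) and Lef1 was lower too (-2.37 ± 0.19), while Fzd9 was at 36.1, 49.8 and 44.3 CPM against 0.31 to 0.48 CPM (6.61 ± 0.33) and Ror2 was higher (3.89 ± 0.28).

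The genes most like each member were found by Pearson correlation of log2(CPM + 1) over the 27 sums of class and lot among 11302 genes, as a description in which the sums share lots. Rspo1 was most like Gxylt2 (r = 0.972), Olfm1 (0.960) and Dcaf12l1 (0.950), and Rspo3 most like the homeobox gene Meis2 (0.922), Tshz3 (0.883) and Cd55 (0.877). Lgr5 was most like Fabp3 (0.881), Aldh1a7 (0.866) and Cst8 (0.848), and Lgr4 most like Efnb1 (0.959), Klhdc8b (0.947) and Atat1 (0.946). Znrf3 was most like Lrrc1, Bicd1 and Fbxo10 (0.934 to 0.947), and Rnf43 most like Lrrn1, Sulf1 and Smpdl3b (0.847 to 0.901). Among the members themselves, Rspo1 ran closest to Rnf43 (0.804) and Lgr4 (0.774), and Rspo3 and Rspo1 had an r of 0.137.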

How the data were processed

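UMI counts per gene and barcode were deposited as 1 table per lot for 3 lots of E12.5 ovarian somatic cells. The authors made these counts with UMI-tools, STAR 2.7 and featureCounts 2.0.1 (Subread) on GRCm38 and named Seurat, per the submitters' processing notes, and the gene annotation and strand setting are not given in the sources used here. The tables were used as deposited, without normalization by the authors, and they count 3′ ends, so that levels of different genes are not comparable. Totals of the kept cells were 125898949, 87474664 and 141398825 UMIs.

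Barcodes with 200 to 9000 genes and at most 10% mitochondrial UMIs (13 genes) were kept. Seurat 5.3.0 was run on log-normalized counts of 1992 variable genes, with 50 principal components and resolution 0.8. These were the 2000 variable genes less the 8 among them that belonged to 49 held-out genes (members, Wnt list, co-detection markers). A cluster was named where a list scored at least 1, led the next by 0.5 and had at least 3 markers in 25% of cells. Clusters 12 (shallow, led by Ryr2), 14 (led by Insl3 and Cyp17a1) and 17 (a tie of 2 lists) stayed unnamed. Stricter first thresholds, changed before member levels were viewed, left most epithelial-like clusters unnamed, so that class and its comparisons depend on this choice, and class names were rebuilt here and can differ from the study's. Scrublet in scanpy 1.11.5 marked doublets per lot at an expected rate of 0.08, kept in the main values and removed in an alternative.

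UMIs were summed per class and lot. The 27 sums of 9 classes entered edgeR 4.0.16 (TMM, filterByExpr, robust quasi-likelihood fit, threshold 0.05, 13450 genes), the smallest with 184947 UMIs, and DESeq2 1.42.0 as an alternative. The fit script was tested on simulated data. Sums of 1 lot come from 1 pool of embryos and are paired by design. Over 108 pairs of sums of 1 lot, deviations from the class means had a median r of 0.14, with 68 over 0.1. For shares of cells, each cell was thinned to 4000 UMIs, leaving out 254, 252 and 329 shallower cells in lots 26, 29 and 30. Named from the Wnt list were Rspo2, Rspo4, Axin2, Lef1 and the 2 called genes with the largest fold change in each comparison, and for each member that passed the filter the 3 genes most like it that reached 10 CPM in a class. The members and lists were chosen with earlier results of these data known.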

Additional observations from a re-analysis of the deposited data

Results flagged for a closer look

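Cluster 12, which no class and no comparison of the report uses, held 4 of the genes at a higher mean CPM than any named class. Lgr4 stood at 314 CPM there (291, 327 and 324 in lots 26, 29 and 30), Lgr5 at 191 CPM (236, 133 and 204), Znrf3 at 55.0 CPM (44.2, 61.0 and 59.7) and Rnf43 at 38.7 CPM (59.6, 16.7 and 39.8), while Rspo1 at 181 CPM lay below the pre-granulosa-like level. The 720 cells of this cluster had a median depth of 0.242 of their own lots' and were led by Ryr2, Pla2r1 and Cacna1d. There is no control sample, and the levels are above what a count of 0 allows. The part of the low depth in these levels was not tested.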

How the results depend on the processing

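Of 36 member log2 fold changes tested, 23 were called, and 20 of them kept the call in every alternative run. Lgr5 (epithelial-like against pre-granulosa-like), Rspo3 (germ-like) and Rnf43 (endothelial-like) lost it in some, with values given beside each result. Over 540 alternative values, 6 changed sign, none of them called in the main fit. At resolution 0.4, where a stromal cluster of 3410 cells led by Insl3 and Cyp17a1 stayed unnamed, Lgr4 (-0.35) and Znrf3 (-0.15) turned lower in stromal-like than in pre-granulosa-like cells, and Lgr4 (0.11) higher in epithelial-like than in stromal-like cells. Leaving out each lot, Znrf3 ranged from -0.036 (without lot 30) to 0.10 in stromal-like against pre-granulosa-like cells and from -0.76 to 0.035 (without lot 26) in endothelial-like cells, and Rspo3 from -0.18 (without lot 26) to 2.72 in Sertoli-like cells. Fitted on the classes of the contrast only, 5 members were called between epithelial-like and stromal-like cells and 5 between Sertoli-like and pre-granulosa-like cells. Lgr6, which passes the filter of the former, is 1 of its 5.

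Leaving out each lot gave 2 to 3 called members for epithelial-like against pre-granulosa-like cells, 4 for stromal-like against pre-granulosa-like, 3 to 4 for epithelial-like against stromal-like, 5 to 6 for germ-like, 3 to 5 for endothelial-like and 3 to 5 for Sertoli-like cells (5 without lot 29), and 13 to 14 marker and class pairs more frequent with Lgr5. With the lot as a replicate block, 4 members were called in each comparison of large classes, 4 in Sertoli-like, 4 in endothelial-like and 6 in germ-like cells, and apart from the calls named in the report it changed no other call. The marker and class pairs fell from 13 to 7 with thinned cells and to 6 with doublets removed as well, a setting chosen after seeing the data, as were those without cluster 2, cluster 9 or cells with a Y-linked UMI. Of 180 alternative differences in a marker's share between cells with and without Lgr5, 46 moved by 1 SD or more, 15 with thinned cells and 16 with doublets removed as well. Of 126 alternative levels in the 9 named classes, 10 did, all without called doublets: Rspo1 in stromal-like, germ-like and endothelial-like cells, Lgr4 in endothelial-like, Lgr5 in stromal-like, endothelial-like, macrophage-like and Sertoli-like (55.4 CPM), Rnf43 in Sertoli-like (2.30 CPM) and Lgr6 in macrophage-like cells. At 359 UMIs, Lgr6 could not be tested across all classes.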
